A study of Mus musculus with 9 samples.

Results

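The Gadd45 family and the stress-activated MAP kinases that it is known to engage were followed as a set of 10 genes in mouse embryonic fibroblasts (MEFs) under hyperosmotic stress. The members were chosen by name, with earlier results of these data known. They were Gadd45a, Gadd45b and Gadd45g and the MAP kinase kinases Map2k3, Map2k4 and Map2k6. The others were the p38 gene Mapk14, the JNK genes Mapk8 and Mapk9, and Mapkapk2, a kinase that p38 activates. All 10 were found among the 35275 genes of the deposited table, and all 10 passed the filter on low counts, which left 13082 genes to be tested. MEFs of strain C57Bl/6, grown as a monolayer in DMEM with serum, stayed in iso-osmolar medium (control, 300 mOsm) or were given sucrose for 3 h, either 200 mM for low intensity stress (500 mOsm) or 300 mM for high intensity stress (600 mOsm). Polyadenylated RNA was sequenced as 3 libraries in each group, 9 in all, and the 2 sucrose groups are each compared with the same 3 control libraries. Neither the labels nor the methods say whether the 3 libraries of a group came from separate cultures, so the p-values measure the spread between these libraries, which may be technical. Libraries held from 21716042 to 26740832 counts on genes, and 3 counts in a library, taken as the floor, came to between 0.113 and 0.137 CPM (counts relative to the total of the library), a limit that covers counting error only.

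GADD45 proteins are small, acidic proteins without enzymatic activity that are made quickly after DNA damage, cytokines or other stress. They bind the MAP3K MTK1 (Map3k4) and release its kinase domain, which then phosphorylates the MAP kinase kinases above p38 and JNK, and they also bind PCNA, p21 and the CDK1 kinase that drives mitosis. In the p38 branch MKK3 (Map2k3) and MKK6 (Map2k6) activate p38, which in turn activates MK2 (Mapkapk2), and in the JNK branch MKK4 (Map2k4) and MKK7 (Map2k7) activate JNK. The p38 branch is the mammalian counterpart of the HOG pathway by which yeast answers high osmolarity. These kinases are switched by phosphorylation, which RNA counts do not measure.

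The 3 Gadd45 genes are compact. Each had 4 exons in the longest coding model, and on mm10 they spanned 2362 bases (Gadd45a, chr6:67035096-67037457, minus strand), 2114 bases (Gadd45b, chr10:80930091-80932204, plus strand) and 1791 bases (Gadd45g, chr13:51846678-51848468, plus strand). The median span of the genes tested was 20344.5 bases, and 8.62% of them were shorter than Gadd45a. The 7 kinase genes spanned from 20779 bases (Map2k3) to 126401 bases (Map2k6) and had 10 to 12 exons.

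The sequences upstream of the 3 Gadd45 genes are shown because these were the members whose RNA rose. They are from RefSeq (GRCm38.p6, the assembly that mm10 names), read 5′ to 3′ on the strand of the gene, and end before the gene model begins, at chr6:67037458-67037657 for Gadd45a, chr10:80929841-80930090 for Gadd45b and chr13:51846425-51846674 for Gadd45g. Capitals mark letters that match a searched motif.
Gadd45a: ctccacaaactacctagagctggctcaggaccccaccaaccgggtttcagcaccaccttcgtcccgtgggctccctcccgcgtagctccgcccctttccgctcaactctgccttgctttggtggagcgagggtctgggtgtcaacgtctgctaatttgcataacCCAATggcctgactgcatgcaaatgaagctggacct
Gadd45b: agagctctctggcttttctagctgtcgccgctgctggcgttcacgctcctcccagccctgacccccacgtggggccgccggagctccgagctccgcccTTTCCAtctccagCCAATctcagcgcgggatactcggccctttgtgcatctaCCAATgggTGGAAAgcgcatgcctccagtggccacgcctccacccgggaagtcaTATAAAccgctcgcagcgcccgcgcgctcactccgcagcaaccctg
Gadd45g: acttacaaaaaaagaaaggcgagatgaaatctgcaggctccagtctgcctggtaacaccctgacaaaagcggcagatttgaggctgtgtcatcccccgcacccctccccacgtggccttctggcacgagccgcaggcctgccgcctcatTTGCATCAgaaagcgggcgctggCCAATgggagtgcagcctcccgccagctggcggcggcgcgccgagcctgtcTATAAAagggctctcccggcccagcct

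Each motif was searched on both strands. The promoter elements were the TATA box, spelled TATAAA, and the box spelled CCAAT that binds NF-Y. Elements of stress-responsive factors were the cyclic AMP element, spelled TGACGTCA, the element of AP-1 proteins, spelled TGANTCA, and the composite element for ATF4 with a C/EBP partner, spelled TGATGNAA. For the Rel family the letters were GGGNNTTTC for the kB element of NF-κB and TGGAAA for the core of the element that TonEBP binds. In the 10 windows no match overlapped another. The window was the 250 bases before the RefSeq start, which was found for all 10 members. For Gadd45a only 200 of these bases are printed, since its window ran on into the gene model. Positions are counted from the RefSeq start. This CCAAT element lay in all 3 Gadd45 windows, starting 86 bases before the start in Gadd45a, 139 and 100 bases before it in Gadd45b, and 78 bases before it in Gadd45g. The same letters were in the windows of Map2k3, Mapk9 and Mapk14 and in 33.8% of 32851 promoters. TATAAA lay 46 bases upstream in Gadd45b and 27 bases upstream in Gadd45g, in none of the other 8 members, and in 12.4% of promoters. Gadd45g also held the ATF4 composite letters on the minus strand (TTGCATCA, starting 101 bases upstream), found in 3.45% of promoters. Gadd45b held TGGAAA 92 bases upstream and its reverse complement TTTCCA 152 bases upstream, letters that were in 18.6% of promoters. Matches to AP-1 (6.75% of promoters) and kB (3.72%) were found in Map2k6 alone among the members, and none of the 10 windows held the cyclic AMP element (1.55%). Such matches describe letters only, and binding was not measured.

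The response of the family split by gene. Low intensity stress raised all 3 Gadd45 genes, whereas high intensity stress raised Gadd45b and Gadd45g but left Gadd45a below the control. In the comparison of 500 mOsm with control, edgeR's quasi-likelihood test with Benjamini-Hochberg adjustment over all genes called 3 members higher, where 13.2% of all genes were called higher, and 1 lower, where 14.8% were (28.0% in either direction). At 600 mOsm against control, 2 members were higher, beside 15.1% of all genes, and 4 were lower, beside 20.0% (35.1% in either direction). Between 600 and 500 mOsm, 1 member was higher, beside 11.9% of all genes, and 3 were lower, beside 17.2% (29.1% in either direction). Over the 10 members the median log2 fold change was -0.03, -0.15 and -0.04 in this order of comparisons, and over all genes tested it was 0.01 in each.

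Gadd45a, the member best known as a p53 target, was the only Gadd45 gene that rose at one intensity and not at the other. It had 65, 80 and 76 counts in the control libraries, 282, 266 and 278 counts at 500 mOsm and 59, 49 and 62 counts at 600 mOsm. Per length this was 2.45, 2.66 and 2.57 FPKM (fragments scaled to gene length and library total) in control, 9.48, 8.13 and 8.78 FPKM at 500 mOsm and 2.00, 1.81 and 1.91 FPKM at 600 mOsm. The 500 mOsm libraries lay far above all others, and the 600 mOsm libraries lay just below the controls without overlap. The log2 fold change was 1.78 ± 0.113 (SE, edgeR adjusted p = 1.47e-07) at 500 mOsm against control, a 3.44-fold rise, and -2.18 ± 0.117 (adjusted p = 3.83e-08) at 600 against 500 mOsm. Only 299 of the 13082 genes fell further between the 2 intensities. The fall below control at 600 mOsm, which was -0.40 ± 0.132 on the log2 scale (edgeR adjusted p = 0.0316), rested on few counts: it passed in 9 of 19 alternatives, and its adjusted p reached 0.104 in DESeq2.

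An antisense gene, E230016M11Rik, shares 238 exon bases with Gadd45a in the gene models used. Over all transcripts of both genes, the longest shared stretch found by blastn was 317 bases, at 100% identity. E230016M11Rik had 1 to 5 counts in control, 10 to 13 counts at 500 mOsm and 4 counts in each library at 600 mOsm, too few to be tested. Whether the counting used the strand is not given in the sources used here, so reads from the shared bases cannot be told apart. How many of the 266 to 282 Gadd45a counts at 500 mOsm came from the shared bases was not tested. The small counts listed for the antisense gene do not limit that number.

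Gadd45b, known as an early gene downstream of NF-κB and TGF-β, was the most abundant family member in every library. Its level was 66.8, 66.2 and 70.2 FPKM in control, 181.9, 190.4 and 179 FPKM at 500 mOsm and 194.4, 194.1 and 193.5 FPKM at 600 mOsm. Both stressed groups lay well apart from control, and the 3 libraries at 600 mOsm lay just above those at 500 mOsm. The log2 fold change against control was 1.44 ± 0.0477 (edgeR adjusted p = 3.34e-10) at 500 mOsm and 1.54 ± 0.0478 (adjusted p = 4.54e-10) at 600 mOsm, folds of 2.72 and 2.90. Between the 2 intensities the difference was 0.10 (95% confidence interval -0.01 to 0.20) on the log2 scale and did not pass the test (edgeR adjusted p = 0.148). When GC content and gene length were corrected for, its sign turned, to -0.02.

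Gadd45g, a family member induced by cytokines and by differentiation signals, rose in steps with intensity. Its level was 38.2, 40.7 and 36.6 FPKM in control, 74.3, 72.5 and 63.2 FPKM at 500 mOsm and 128, 117 and 122 FPKM at 600 mOsm. No 2 of the groups overlapped. The log2 fold change was 0.87 ± 0.0758 (edgeR adjusted p = 2.54e-06) at 500 mOsm and 1.69 ± 0.0759 (adjusted p = 1.13e-08) at 600 mOsm against control, and 0.83 ± 0.0730 (adjusted p = 3.74e-06) between the intensities.

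**Figure D1:**
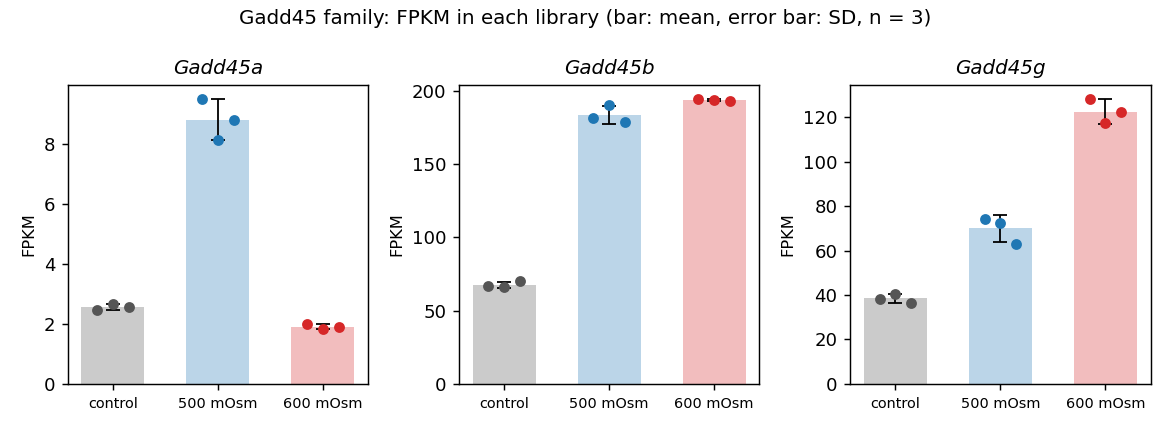
Level of Gadd45a, Gadd45b and Gadd45g in FPKM (vertical axes, each from 0) in the 3 libraries (points) of control, 500 mOsm and 600 mOsm, with the mean (bar) and SD (error bar). Gadd45a is high at 500 mOsm alone (8.13 to 9.48 FPKM), Gadd45b is high at both intensities, and Gadd45g is higher at 600 than at 500 mOsm.

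Summed per length over the family, Gadd45 RNA was 109 ± 1.18 FPKM (SD, n = 3) in control, 263 ± 10.4 FPKM at 500 mOsm and 318.5 ± 5.79 FPKM at 600 mOsm. The groups did not overlap, and in each of the 3 comparisons the exact two-sided permutation test gave p = 0.1, the smallest that 3 libraries against 3 allow. The make-up of the sum is given as a description, without a test. Gadd45b made up 62.3% of the family's FPKM in control, 70.0% at 500 mOsm and 60.9% at 600 mOsm, and Gadd45g made up 35.4%, 26.6% and 38.5%. Gadd45a was a minor part throughout, at 2.35% in control, 3.36% at 500 mOsm and 0.598% at 600 mOsm. In these bulk libraries a change in the number of cells that express a gene and a change in RNA per cell cannot be told apart.

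**Figure D2:**
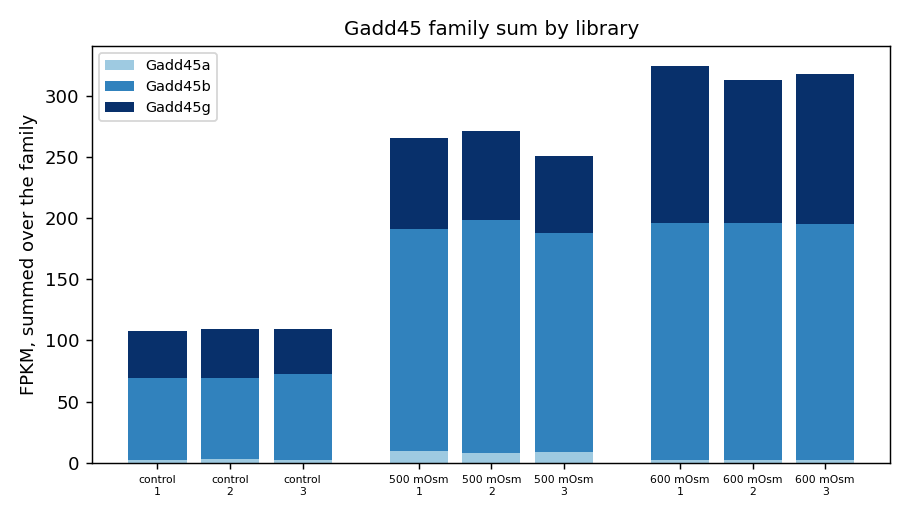
FPKM summed over the Gadd45 family (vertical axis) in each of the 9 libraries, with the parts from Gadd45a, Gadd45b and Gadd45g stacked. The sum lies at 107 to 109.5 FPKM in control, 251 to 271 FPKM at 500 mOsm and 313 to 325 FPKM at 600 mOsm, and the Gadd45a part is thin in every library.

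The 7 kinase genes covered a narrower range of change than the Gadd45 genes, and those called had all fallen. None of them was called higher in any comparison by edgeR, and the same count of 0 was found at an unadjusted p under 0.05, by DESeq2 and by limma on log2(FPKM + 1). Those called lower were 1 of 7 at 500 mOsm and 3 at 600 mOsm against control, and 2 between the intensities, where 14.8%, 20.0% and 17.2% of all genes were called lower. The shares called higher were 13.2%, 15.1% and 11.9% of all genes. With 7 genes, a count of 0 higher is thus near the background, and so is 1 lower at 500 mOsm. Their log2 fold changes lay between -0.62 and 0.10 over the 3 comparisons.

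Map2k3, which encodes the p38 activator MKK3, was the most abundant member per length in control, and it fell with intensity. It measured 225, 223 and 222 FPKM in control, 183, 190.4 and 191 FPKM at 500 mOsm and 146, 146 and 138 FPKM at 600 mOsm. The groups did not overlap. Its log2 fold change was -0.25 ± 0.0406 (edgeR adjusted p = 0.000528) at 500 mOsm and -0.62 ± 0.0408 (adjusted p = 2.47e-07) at 600 mOsm against control, and -0.38 ± 0.0407 (adjusted p = 2.08e-05) between the intensities. At 600 mOsm this left 65.0% of the control level. Map2k3os, a gene on the opposite strand, had a pattern of its own. Its gene model is separated from the start of Map2k3 by 165 bases and shares no exon bases with it. This neighbour, named after its values were seen, had 12.5 to 13.3 FPKM in control, 19.7 to 24.2 FPKM at 500 mOsm and 9.74 to 11.4 FPKM at 600 mOsm, so that it rose at 500 mOsm (log2 fold change 0.79 ± 0.0864, edgeR adjusted p = 1.74e-05), where Map2k3 fell. At 600 against 500 mOsm it fell, as Map2k3 did, by 1.03 on the log2 scale (edgeR adjusted p = 2.67e-06), and against control its -0.24 did not pass (adjusted p = 0.0579).

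The other p38 activator, Map2k6, was the least abundant member, at 0.937 to 1.52 FPKM over all 9 libraries and 52 to 69 counts. Its groups overlapped in every comparison, and at this depth the 95% confidence interval of its log2 fold change, -0.53 to 0.31 at 500 mOsm and -0.56 to 0.29 at 600 mOsm, leaves room for a change as large as that of Map2k4. Map2k4, the JNK activator MKK4, had 12.4, 12.0 and 11.3 FPKM in control, 10.3, 9.79 and 10.7 FPKM at 500 mOsm and 8.74, 10.8 and 8.15 FPKM at 600 mOsm. Both stressed groups lay below control, and replicate 2 at 600 mOsm lay just above all 3 libraries at 500 mOsm. The log2 fold change of Map2k4 was -0.35 ± 0.0863 (edgeR adjusted p = 0.00765) at 600 mOsm, and at 500 mOsm it was -0.21 (95% confidence interval -0.40 to -0.02, adjusted p = 0.0903). Between the intensities the difference of -0.14 did not pass (edgeR adjusted p = 0.258), but without replicate 2 of 600 mOsm it was -0.25 with an adjusted p of 0.0245.

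Mapk14, which encodes p38α, was at 51.4, 54.5 and 51.8 FPKM in control, 56.9, 56.3 and 52.6 FPKM at 500 mOsm and 46.3, 44.9 and 46.3 FPKM at 600 mOsm. Control and 500 mOsm overlapped, and the 600 mOsm libraries lay below both. The fall at 600 mOsm was -0.25 ± 0.0528 (edgeR adjusted p = 0.00304) on the log2 scale against 500 mOsm and -0.18 ± 0.0529 (adjusted p = 0.0201) against control. The latter did not pass without control replicate 2 (adjusted p = 0.0855), without 600 mOsm replicate 1 (0.0508) or without 600 mOsm replicate 2 (0.0687). At 500 mOsm against control the log2 fold change was 0.08 (95% confidence interval -0.04 to 0.19, edgeR adjusted p = 0.329).

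The JNK genes were not called in any comparison. Mapk9 (JNK2) was at 8.89 to 10.7 FPKM in control, 8.93 to 10.4 FPKM at 500 mOsm and 8.45 to 10.6 FPKM at 600 mOsm, ranges that nearly coincide. The 95% confidence intervals of its log2 fold change were -0.20 to 0.19 for low intensity stress and -0.22 to 0.18 for high intensity stress. Mapk8 (JNK1) was at 3.01, 2.53 and 2.48 FPKM in control, 2.03, 2.02 and 2.56 FPKM at 500 mOsm and 2.25, 2.64 and 2.12 FPKM at 600 mOsm. Its log2 fold change was -0.27 (95% confidence interval -0.53 to -0.02, edgeR adjusted p = 0.102) at 500 mOsm. Without 500 mOsm replicate 3, the library that overlapped control, it was -0.39 with an adjusted p of 0.0306. Leaving out that library separates the groups by construction, so this value does not bear on the call. The fall passed in 2 of 19 alternatives. In the 600 mOsm group the highest value of Map2k4, Map2k6, Mapk8 and Mapk9 was in replicate 2 each time. The other groups also had such a library. In control the highest value of these genes was in replicate 1 each time. At 500 mOsm that of Map2k4, Mapk8 and Mapk9 was in replicate 3, and that of Map2k6 in replicate 1.

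Mapkapk2, which encodes the p38-activated kinase MK2, was at 89.4 to 96.6 FPKM in control, 84.2 to 96.1 FPKM at 500 mOsm and 80.2 to 89.1 FPKM at 600 mOsm. The 500 mOsm range overlapped both others, the 600 mOsm libraries lay just below control in FPKM, and no comparison passed. The log2 fold change was -0.11 (95% confidence interval -0.25 to 0.04, edgeR adjusted p = 0.25) at 600 mOsm against control. Once GC content and gene length were corrected for, that fall was -0.19 and passed (adjusted p = 0.000766).

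**Figure D3:**
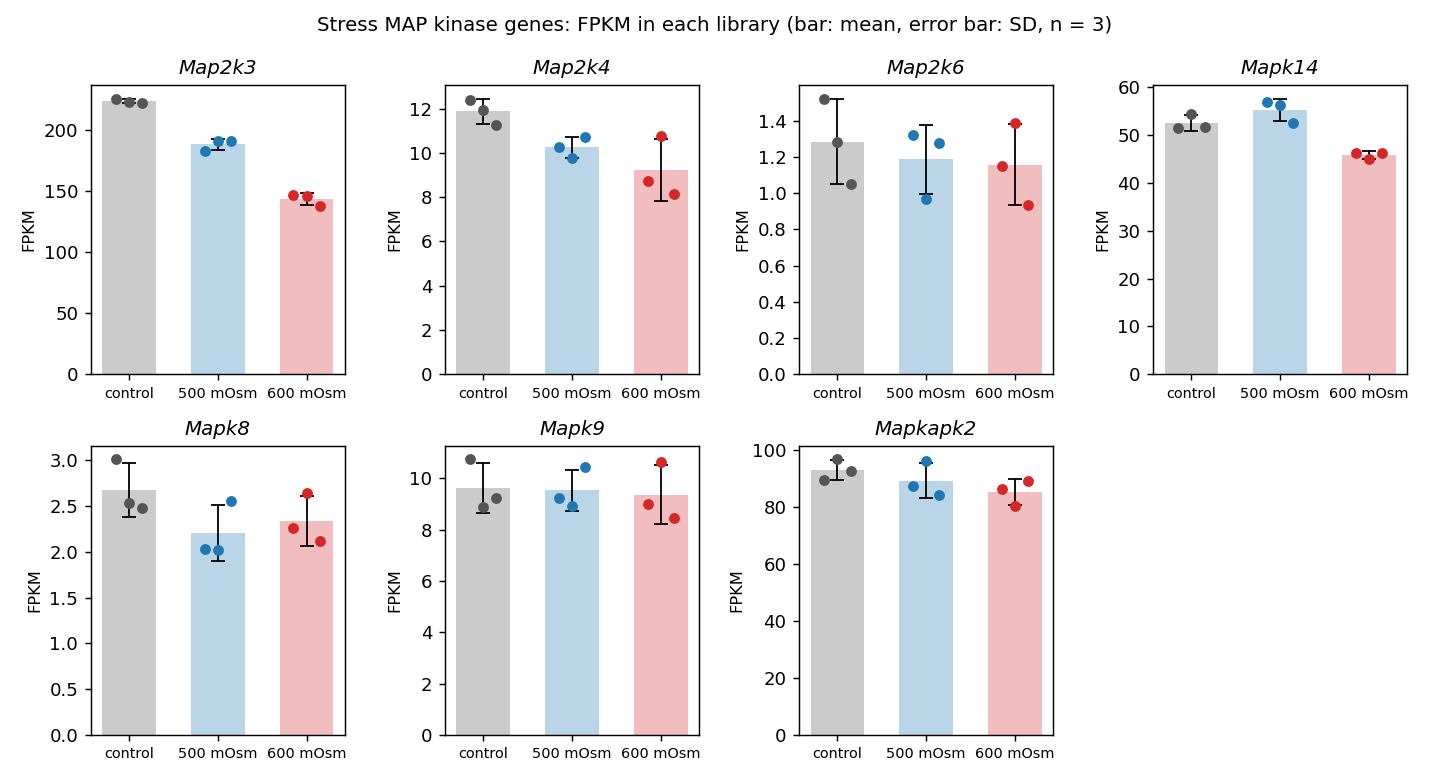
Level of the 7 kinase genes in FPKM (vertical axes, each from 0) in the 3 libraries (points) of control, 500 mOsm and 600 mOsm, with the mean (bar) and SD (error bar). Map2k3 steps down from 222 to 225 FPKM in control to 138 to 146 FPKM at 600 mOsm, while the points of Map2k6, Mapk8 and Mapk9 mix between groups.

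**Figure D4:**
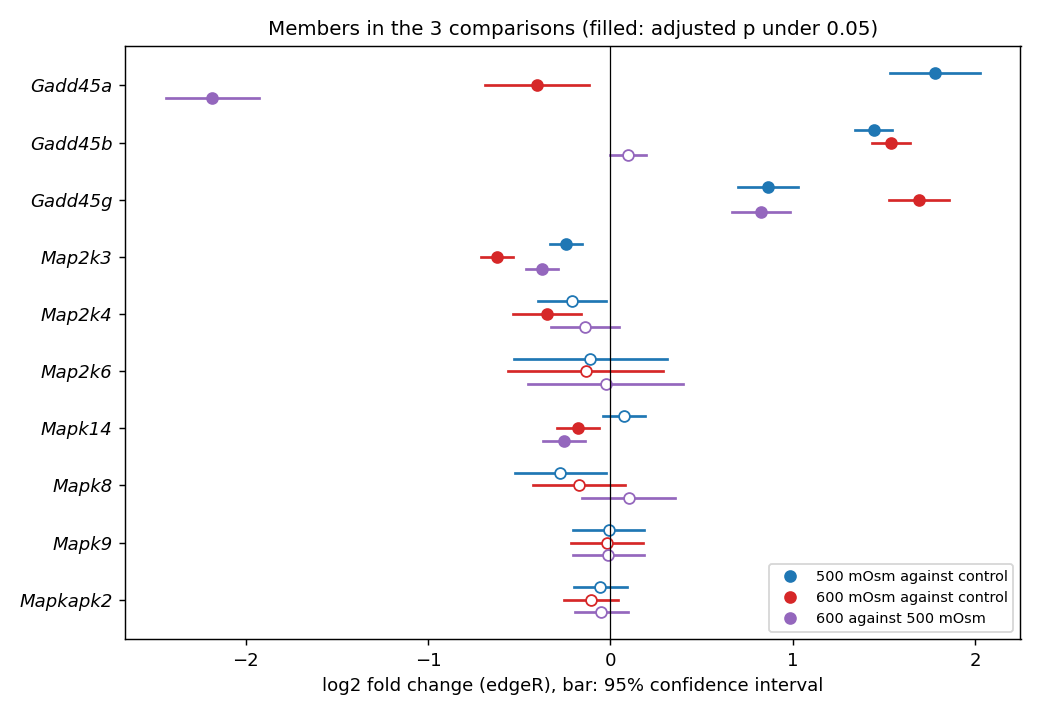
Log2 fold change of each member from edgeR (horizontal axis) in the 3 comparisons (colours), with 95% confidence intervals (lines) and calls at an adjusted p under 0.05 (filled points). The Gadd45 genes hold the points farthest from 0, from -2.18 to 1.78, and every filled kinase point lies below 0, down to -0.62 for Map2k3.

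The order of the members per length changed with stress. In control it ran from Map2k3 (223 FPKM) through Mapkapk2 (92.9), Gadd45b (67.7), Mapk14 (52.6), Gadd45g (38.5), Map2k4 (11.9), Mapk9 (9.61), Mapk8 (2.67) and Gadd45a (2.56) to Map2k6 (1.29 FPKM), and only the ranges of Mapk8 and Gadd45a overlapped. At 500 mOsm Gadd45b (184 FPKM) drew level with Map2k3 (188 FPKM), whose ranges overlapped, Gadd45g passed Mapk14, and Gadd45a reached the range of Mapk9. At 600 mOsm Gadd45b led with 194 FPKM, ahead of Map2k3 (143), Gadd45g (123) and Mapkapk2 (85.1 FPKM), and Gadd45a stood below Mapk8. Mapk9 and Map2k4 overlapped in both stressed groups.

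Within each kinase family 1 gene supplied most of the RNA per length, and that gene was a member of the set. Mapk14 made up 80.0% of the FPKM of the 4 p38 genes in control, 79.7% at 500 mOsm and 76.7% at 600 mOsm, and the share of Mapk12 (p38γ) was 12.2%, 13.8% and 16.3%. Mapk9 held 78.2% of the FPKM of the 3 JNK genes in control, 81.2% at 500 mOsm and 80.0% at 600 mOsm, the remainder being nearly all Mapk8. Map2k3 held 83.6%, 81.6% and 78.7% of the FPKM of the MAP kinase kinases above p38 and JNK, whose sum fell from 267 ± 1.81 FPKM (SD, n = 3) in control to 230.4 ± 4.26 FPKM at 500 mOsm and 182 ± 5.43 FPKM at 600 mOsm. The share of Map2k7, the other JNK activator, was 11.4% in control, 13.4% at 500 mOsm and 15.6% at 600 mOsm, although its own log2 fold changes of 0.02 and -0.09 did not pass the test (edgeR adjusted p = 0.796 and 0.235).

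Of the proteins that GADD45 is known to bind, the RNAs moved in different ways. Among 7 such genes, 2 were called higher at 500 mOsm and 0 lower (edgeR, also 0 at an unadjusted p under 0.05 and by DESeq2 and limma), while at 600 mOsm against control 3 were higher and 1 lower, and between the intensities 2 were higher and 1 lower. Of all genes, 13.2% were higher and 14.8% lower at 500 mOsm, 15.1% and 20.0% at 600 mOsm, and 11.9% and 17.2% between the intensities, so that with 7 genes a count of 0 or 1 lower is near the background. Correcting for GC content and gene length gave 3 higher and 0 lower at 500 mOsm and 2 higher and 2 lower at 600 mOsm. Between the intensities it gave 1 higher and 2 lower, so that the balance there turned. The median log2 fold change was 0.04, 0.00 and 0.01 in the main fit. Map3k4, the MAP3K that GADD45 opens, was at 2.88 to 3.53 FPKM over all libraries, and its log2 fold change was 0.04 (95% confidence interval -0.18 to 0.25) at 500 mOsm and -0.04 (-0.26 to 0.17) at 600 mOsm. Pcna, the sliding clamp of DNA replication, was not called either, with -0.01 and 0.00. Cdkn1a, the p21 inhibitor of cyclin-dependent kinases and like Gadd45a a known p53 target, had 8.66, 9.0 and 7.72 FPKM in control, 10.3, 12.4 and 11.5 FPKM at 500 mOsm and 2.89, 2.30 and 2.25 FPKM at 600 mOsm. It was thus highest at 500 mOsm and lowest at 600 mOsm without overlap, with log2 fold changes of 0.44 ± 0.108 (edgeR adjusted p = 0.00847) and -1.75 ± 0.123 (adjusted p = 4.19e-07) against control and -2.19 ± 0.121 (adjusted p = 5.18e-08) between the intensities. Cdk1 rose at 600 mOsm, by 0.45 on the log2 scale against control and 0.34 against 500 mOsm, and its partner cyclin B1 (Ccnb1) rose by 0.24 at 500 mOsm and 0.34 at 600 mOsm. Gadd45gip1, which encodes a GADD45-binding mitochondrial ribosomal protein, rose by 0.27 at 600 against 500 mOsm.

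The other genes of the p38 and JNK pathway were taken from a list of 44, of which 37 were tested. Of the 37, low intensity stress had 5 higher and 5 lower, high intensity stress had 4 higher and 10 lower against control, and the intensities differed in 17, with 4 higher and 13 lower at 600 mOsm. The median log2 fold change was 0.03, -0.10 and -0.12, and the 17 calls between the intensities fell to 11 without replicate 1 of 600 mOsm. The shares called can be read against the 28.0%, 35.1% and 29.1% of all genes. By direction these were 13.2%, 15.1% and 11.9% higher and 14.8%, 20.0% and 17.2% lower. Once GC content and gene length were corrected for, 5 pathway genes were higher and 9 lower between the intensities.

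For the 10 tested adaptors and scaffolds, which hold the kinases together, 500 mOsm gave 1 higher and 3 lower, 600 mOsm gave 2 higher and 6 lower, and the contrast of the intensities gave 2 higher and 5 lower. The medians of these 10 were 0.02, -0.34 and -0.30 on the log2 scale. Over all genes, 13.2%, 15.1% and 11.9% were higher and 14.8%, 20.0% and 17.2% lower, in the same order. Once GC content and gene length were corrected for, 4 adaptors and scaffolds were lower at 600 mOsm against control and 4 between the intensities. Mapk8ip3 (JIP3), a JNK scaffold, had 6.95, 7.12 and 7.57 FPKM in control and 3.37 to 3.99 FPKM in all 6 stressed libraries, a log2 fold change of -0.99 ± 0.0732 (edgeR adjusted p = 5.6e-07) at 500 mOsm and -0.97 ± 0.0734 (adjusted p = 8.14e-07) at 600 mOsm. Ccm2 (OSM), the scaffold for MEKK3 and MKK3 in osmosensing, had its lowest level at 500 mOsm, with -0.79 at 500 mOsm and -0.31 at 600 mOsm against control, and it was higher by 0.48 at 600 against 500 mOsm. Traf2, an adaptor of TNF receptors, moved oppositely, with 0.66 and 0.24 against control and -0.41 between the intensities. Tab1, an activator of TAK1 that can also bind p38α, fell by 0.28 at 500 mOsm and rose by 0.37 at 600 mOsm. Sh3rf1 (POSH), a JNK scaffold, fell by 0.55 at 600 mOsm against control, and Spag9 (JIP4), which binds both p38 and JNK, fell by 0.52 against 500 mOsm.

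In the MAP3K tier, 500 mOsm gave 1 higher and 2 lower among 15 tested genes, 600 mOsm gave 0 higher and 2 lower, and the contrast of the intensities gave 2 higher and 5 lower. The count of 0 was also 0 at an unadjusted p under 0.05 and by DESeq2 and limma, and 1 once GC content and gene length were corrected for. That correction also turned the balance between the intensities to 3 higher and 2 lower, and gave 4 lower at 600 mOsm against control. The median log2 fold change was 0.04, -0.11 and -0.21. The shares over all genes were 13.2%, 15.1% and 11.9% higher and 14.8%, 20.0% and 17.2% lower in the same order. With 15 genes, the counts at 500 mOsm are near these shares. Map3k1 (MEKK1) fell by 1.12 at 500 mOsm and was 0.82 higher at 600 than at 500 mOsm, and Map3k11 (MLK3) fell by 0.44 at 500 mOsm. Map3k2 (MEKK2) fell by 0.67 and Map3k7 (TAK1) by 0.22 at 600 mOsm against control, while Taok2 was 0.21 higher at 600 than at 500 mOsm. The Map3k7 call was narrow (edgeR adjusted p = 0.0472), and its 600 mOsm libraries overlapped control. Map3k15 (ASK3), a kinase known to respond to osmolarity, had 2 to 5 counts in control, 26 to 39 counts at 500 mOsm and 4 or 5 counts at 600 mOsm. Its log2 fold change of 3.23 ± 0.396 (edgeR adjusted p = 4.53e-05) at 500 mOsm started from a control near the floor of 3 counts. Its level at 500 mOsm was 0.224 to 0.369 FPKM.

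Downstream of p38, 2 of 5 tested kinases were higher at 500 mOsm and 1 at 600 mOsm, and between the intensities none was called by edgeR, DESeq2 or limma (1 was lower at an unadjusted p under 0.05). The median log2 fold change was 0.06, 0.14 and -0.11. Counts here and below, from lists of 5, 4 and 3 tested genes, stand beside shares over all genes. These were 13.2%, 15.1% and 11.9% higher and 14.8%, 20.0% and 17.2% lower in the 3 comparisons. Mknk1, which phosphorylates the cap-binding protein eIF4E, rose by 0.39 at 500 mOsm and 0.27 at 600 mOsm. Rps6ka5 (MSK1), a histone kinase, rose by 1.03 at 500 mOsm from 11 to 29 counts in control to 46 to 53 counts. Of the 4 PP2C phosphatases that turn the pathway off, Ppm1d (WIP1), a p53 target that dephosphorylates p38, rose by 0.46 at 500 mOsm and was 0.44 lower at 600 than at 500 mOsm. Ppm1b had 16.1 to 18.0 FPKM in control, 15.3 to 16.7 FPKM at 500 mOsm and 8.11 to 9.51 FPKM at 600 mOsm, a log2 fold change of -0.91 ± 0.0665 (edgeR adjusted p = 5.93e-07) at 600 mOsm against control. In all, 1 of these 4 phosphatases was higher at 500 mOsm, 2 were lower at 600 mOsm against control (the other being Ppm1l, -0.27) and 3 were lower between the intensities, with medians of 0.00, -0.18 and -0.34. With GC content and gene length corrected for, 1 phosphatase was lower at 600 mOsm against control and 2 between the intensities. Among the 3 tested p38 and JNK pathway kinases outside the set, Mapk12 alone was called, with 0.29 ± 0.104 (edgeR adjusted p = 0.0464) at 600 mOsm, a call that DESeq2 also made and limma did not. It was lost once GC content and gene length were corrected for, when 2 of the 3 were called lower. The medians of the 3 were 0.02, -0.09 and -0.09.

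**Figure D5:**
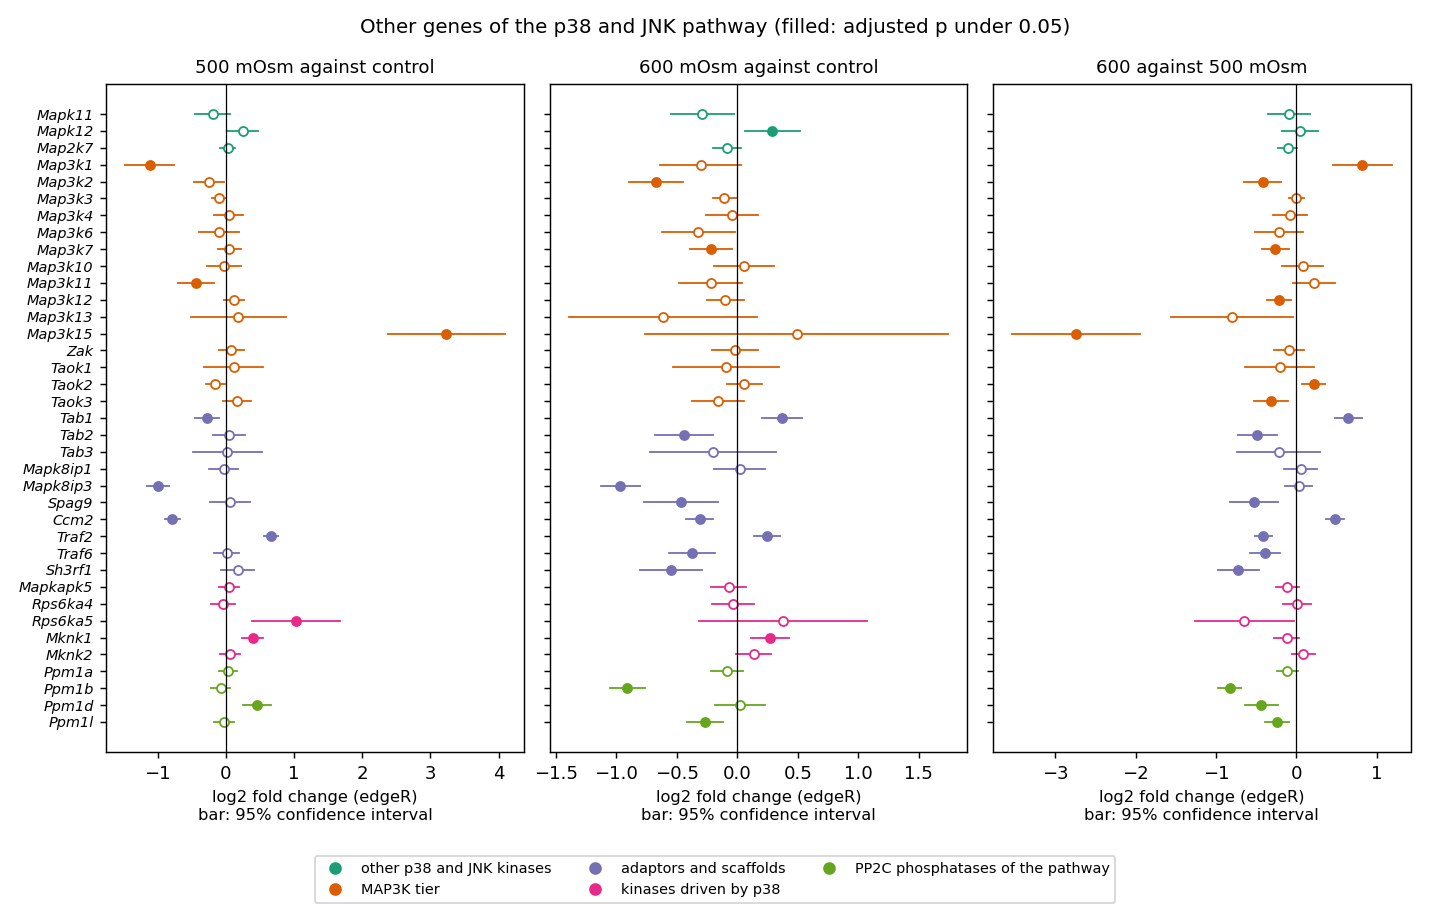
Log2 fold change from edgeR (horizontal axes, on different scales) of the 37 tested pathway genes in the 3 comparisons, coloured by list, with 95% confidence intervals (lines) and calls at an adjusted p under 0.05 (filled points). At 600 against 500 mOsm 13 filled points lie below 0 and 4 above, where 17.2% of all genes were called lower and 11.9% higher. Map3k15 stands farthest out, at 3.23 and -2.74 in the comparisons that hold 500 mOsm.

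For the 3 Gadd45 genes, the genes of most similar pattern were found by the Euclidean distance of centred log2 CPM over the 9 libraries, among the 10381 genes whose average log2 CPM was 1 or more. The libraries are shared, so the correlations describe these 9 libraries only. Nearest to Gadd45a was Zfp36 (distance 0.46, Pearson r = 0.989), which encodes the mRNA decay factor tristetraprolin, and its log2 fold changes were 1.75 at 500 mOsm and -0.23 at 600 mOsm. BC005764 (distance 0.54, r = 0.982) and the transporter gene Slco4a1 (distance 0.55, r = 0.991) came next. Nearest to Gadd45b were the glycosyltransferase gene Mgat3 (distance 0.59, r = 0.984), Pced1b (distance 0.70, r = 0.970) and the growth factor gene Bmp4 (distance 0.89, r = 0.948). Nearest to Gadd45g was Tob1 (distance 0.38, r = 0.983), an anti-proliferative gene with log2 fold changes of 0.86 at 500 mOsm and 1.65 at 600 mOsm, followed by the histone gene Hist1h2ai (distance 0.52, r = 0.971), whose reads near-identical histone genes may share, and the integrin gene Itgb4 (distance 0.74, r = 0.948). No other member was among the 3 nearest of any Gadd45 gene.

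The 3′ ends of the members also differed in a feature tied to mRNA decay. The pentamer ATTTA, the core of AU-rich elements, occurred 2 times in the 563 bases of the Gadd45a 3′UTR (3.55 per kilobase), and 0 times in those of Gadd45b (558 bases), Gadd45g (489 bases) and Map2k3 (964 bases). The median over 19785 coding genes was 1.19 per kilobase, and the median number of copies was 1. Of these genes, 83.7% had a lower density than Gadd45a, and 38.4% had a lower density than Mapk14 (0.484 per kilobase). Map2k6 had the highest density of the 10 members (5.16 per kilobase). Mapk8 had 3.56, Mapk9 2.23, Map2k4 1.63 and Mapkapk2 0.718 per kilobase, and stability was not measured here.

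The identity of the cells was checked by marker genes. Of 10 fibroblast markers, 9 were above 1 FPKM in every library, and the sum of the 10 lay between 5384 and 6296 FPKM. The exception was Dcn, with 0 counts in every control library and 0 to 3 counts in the stressed libraries. Among the markers, 1 rose and 2 fell at 500 mOsm, and 4 rose and 2 fell at 600 mOsm against control. Between the intensities 5 rose and 0 fell (0 also at an unadjusted p under 0.05 and by DESeq2 and limma). For all genes the calls were 13.2%, 15.1% and 11.9% higher and 14.8%, 20.0% and 17.2% lower in these comparisons. Markers of other cell types were low, and some but not all of them were higher at 500 mOsm, where Gadd45a was also highest. The sum of 5 endothelial markers was 0.202 to 0.246 FPKM in control, 3.36 to 3.84 FPKM at 500 mOsm and 0.577 to 0.901 FPKM at 600 mOsm, with Pecam1 as the largest part at 500 mOsm and 2 of the 5 at 0 in every control library. The sum of 5 epithelial markers was 0.104 to 0.278 FPKM in control, 1.03 to 1.38 FPKM at 500 mOsm and 0.140 to 0.295 FPKM at 600 mOsm, mainly from Cdh1, with 2 of the 5 at 0 in every control library and 1 at 0 at 500 mOsm. The sum of 4 blood cell markers was 3.24 to 3.57 FPKM in control, 4.32 to 4.58 FPKM at 500 mOsm and 3.40 to 3.66 FPKM at 600 mOsm. Csf1r was the largest part of that sum, with means of 2.39 FPKM in control and 3.10 FPKM at 500 mOsm. At 500 mOsm against control, 2 of 3 tested endothelial, 1 of 2 tested epithelial and 1 of 2 tested blood cell markers were called higher. Cdh5 (edgeR adjusted p = 0.927), Krt8 (0.109) and Cd68 (0.31) were tested and not called. The remaining markers of these lists did not pass the filter on low counts. The part of these genes in the Gadd45a result was not tested.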

How the data were processed

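RNA from MEFs in control medium or after sucrose was sequenced by the study as poly-T enriched, paired-end libraries on mm10. The submitters' processing notes name CASAVA 1.8 and STAR, and the counting tool and its strand setting are not given in the sources used here. The authors deposited raw counts per gene and FPKM for each library. Their table also holds their own log2 fold changes and p-values for each pair of groups, which were not used. Here, edgeR 4.0.16 (R 4.3.3) scaled the counts with TMM factors and fitted all 9 libraries together by quasi-likelihood, on genes kept by filterByExpr. Benjamini-Hochberg adjustment ran over 13082 genes with a threshold of 0.05. The standard error is the absolute log2 fold change divided by the square root of F. FPKM gave levels and shares.

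The alternatives were RLE factors, library size alone, no filter, at least 10 counts in every library, DESeq2 1.42.0, fits of 2 groups at a time, a block for the replicate number, limma 3.58.1 on log2 FPKM with 1 or 0.1 added, calls limited to a log2 change of 1 or more, and fits without each library. Correcting for GC content and gene length, known for 99.5% of genes tested, was added after the data were seen.

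The members and lists were chosen with earlier results of these data known. Named genes are the members, up to 2 genes per direction and comparison among those called in each further list, the 3 genes nearest in pattern to members that changed by a log2 of 1 or more, and markers; Map2k3os, Map3k4, Map2k7, Pcna and E230016M11Rik are named beside a member outside that rule. Gene models are GENCODE's and promoters RefSeq's, and blastn 2.17.0 was used to look for sequence shared with other genes. Beside the stretch of Gadd45a given above, Mapk8 shares stretches of about 100 bases with 11 genes at 95% identity or more. A comparison list of other MAP kinase genes is not reported here. The symbol Map3k4 is on 2 rows, of which the one that is not at 0 was used. Replicates differed by more than sampling noise, with a chi-square per degree of freedom of 5.25 to 15.9 between libraries of a group.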

Additional observations from a re-analysis of the deposited data

How the results depend on the processing

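Over 19 alternatives in each of 3 comparisons, 527 of 570 log2 fold changes of members kept their direction and side of the threshold, 22 turned sign, 8 passed only in the alternative and 13 no longer passed. The 500 and 600 mOsm calls of Gadd45b, Gadd45g and Map2k3 against control, the Gadd45a calls that involve 500 mOsm, the Map2k4 call at 600 mOsm against control and the Gadd45g, Map2k3 and Mapk14 calls between the intensities passed in all 19. Limiting calls to log2 changes of 1 or more left 2, 2 and 1 members called at 500 mOsm and 600 mOsm against control and between the intensities, in place of 4, 6 and 4. The pathway list had 11 to 18 calls between the intensities when 1 library was left out, the lowest without 600 mOsm replicate 1. The values that turned sign were not called in either setting. Mapk9 gave 0.005 at 500 mOsm with at least 10 counts in every library, 0.008 between the intensities without a filter, and 0.043, 0.139 and 0.096 in the 3 comparisons once GC content and gene length were corrected for, under which Gadd45b gave -0.023 between the intensities. With 1 library left out, Map2k6 ranged from -0.245 to 0.015 at 500 mOsm and from -0.152 to 0.101 between the intensities, Mapk9 from -0.07 to 0.068 at 500 mOsm, from -0.106 to 0.06 at 600 mOsm and from -0.094 to 0.051 between them, and Mapkapk2 from -0.096 to 0.025 between them. The cause was not tested. The replicate number as a block left 4, 5 and 4 members called, 10, 11 and 14 pathway genes and 3111, 3798 and 3089 of all genes in the 3 comparisons, and the Gadd45a fall at 600 mOsm against control was -0.41 with an adjusted p of 0.0534. Under the block the Mapk12 call at 600 mOsm was lost. The MAP3K tier then had 1 lower at 600 mOsm against control, and 1 higher and 3 lower between the intensities. The numbers do not pair the samples: over 11437 genes the mean correlation of deviations was -0.15 for 9 same-numbered pairs (-0.42 to 0.32) and 0.08 for 18 others, and 0 of 9 libraries correlated best with its own number. Scaling alternatives moved the median of all genes to between -0.01 and 0.01. Depth limits Gadd45a at 600 mOsm, with 49 to 62 counts, and Map2k6, with 52 to 69 counts.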
